A study of Caenorhabditis elegans with 2 samples.

Results

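The regions described here are the autosomal distal intergenic regions of a chromatin immunoprecipitation sequencing (ChIP-seq) series for eGFP-tagged FOS-1 in Caenorhabditis elegans. A region counts if it lies on chromosome I, II, III, IV or V and its summit falls outside every protein-coding gene body, and if the summit is not between 1000 bp upstream and 200 bp downstream of any protein-coding 5′ end. There were 642 such regions among the 3527 of the pooled list of peaks and background, each 344 bp wide. The choice used position relative to genes alone. Signal and replicate match did not enter it, while the distance and side of the nearest genes are partly set by it. The animals were whole larvae of strain OP304 at L4, the larval stage before adulthood, with males and females pooled. Both samples carried the unc-119(ed3) allele on chromosome III and the insertion wgIs304, which holds the tagged fos-1. The labels call the 2 samples biological replicates of 1 group, and no other genotype, stage or treatment was compared. The labels do not give the promoter or the cells that drive the tagged gene, nor how many animals were pooled.

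FOS-1 is the worm relative of mammalian Fos, a basic leucine zipper (bZIP) protein. Such proteins bind DNA as dimers with Jun or another bZIP partner, at the AP-1 site TGACTCA or TGAGTCA. In the worm, fos-1 is known for the invasion of the vulval epithelium by the anchor cell and for the contraction of the spermatheca, the contractile tube that eggs pass through. The worm genome is compact and most of its known regulatory elements lie close to the genes they act on. Distal intergenic sequence holds some enhancers, the stretches beyond gene 3′ ends, RNA genes, pseudogenes and repeats.

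The sequences below show the motifs that the results turn on, for regions in the set that passed an irreproducible discovery rate (IDR) threshold, which asks how alike the replicates order the regions. Each is the 101 bases centred on a summit, read 5′ to 3′ on the forward strand of the RefSeq assembly WBcel235 (ce11), and named by the gene with the nearest protein-coding 5′ end. Capitals mark 2 AP-1 sites in the first and runs of GAGAGAG, or CTCTCTC on the other strand, in the next ones. The last, of the region with the highest signal, has neither.
txt-19 (chrIV:12842309-12842409): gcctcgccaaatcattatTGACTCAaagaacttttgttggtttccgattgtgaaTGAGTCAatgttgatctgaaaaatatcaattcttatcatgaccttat
nhr-88 (chrII:2974049-2974149): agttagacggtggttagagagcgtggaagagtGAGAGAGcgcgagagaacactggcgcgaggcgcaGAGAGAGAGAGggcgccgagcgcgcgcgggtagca
din-1 (chrII:11635853-11635953): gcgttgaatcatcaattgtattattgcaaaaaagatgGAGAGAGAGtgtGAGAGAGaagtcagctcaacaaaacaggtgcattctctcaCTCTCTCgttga
egl-9 (chrV:10466826-10466926): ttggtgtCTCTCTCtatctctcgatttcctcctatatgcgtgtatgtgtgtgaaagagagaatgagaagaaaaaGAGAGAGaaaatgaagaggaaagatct
letm-1 (chrV:13658690-13658790): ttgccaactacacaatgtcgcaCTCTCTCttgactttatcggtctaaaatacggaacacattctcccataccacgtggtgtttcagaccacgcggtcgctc
irld-18 (chrIV:14594339-14594439): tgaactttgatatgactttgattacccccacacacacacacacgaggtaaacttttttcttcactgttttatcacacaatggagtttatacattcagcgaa

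In the 201 bases centred on the summit, the txt-19 region had 2 AP-1 sites. No other distal region of the IDR set had any in that window. AP-1 sites close to the summit also occurred in distal regions outside the set, of which the following are shown with 20 bases to each side of the site in capitals.
rga-9 (chrII:15266687-15266733): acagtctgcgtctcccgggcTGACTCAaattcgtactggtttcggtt
crm-1 (chrV:10334028-10334074): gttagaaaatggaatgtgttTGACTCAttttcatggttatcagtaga
Y75B8A.28 (chrIII:12317701-12317747): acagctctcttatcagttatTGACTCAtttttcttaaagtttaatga
lab-2 (chrIII:7324791-7324837): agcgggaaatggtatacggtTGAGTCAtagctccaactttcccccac

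Distal intergenic sequence held about as many regions as its length. The 642 regions were 22.4% (95% interval 20.9 to 23.9) of the 2870 autosomal regions, and this sequence makes up 23.5% of autosomal bases. Promoter windows held 986 regions, 34.4% (32.6 to 36.1), on 22.3% of bases, and the remaining gene bodies 1242, 43.3% (41.5 to 45.1), on 54.2%. Per megabase these were 33.1 distal intergenic, 53.6 promoter and 27.7 gene body regions. Chromosome I held 101 of the 642, II 112, III 123, IV 161 and V 145. Intervals throughout are exact 95% ones (Clopper-Pearson) for counting error alone, and regions that neighbour each other are not independent. The depth of the replicates is unknown, since no read counts entered the work.

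Few distal regions were called. The authors' IDR set held 36 of the 642, 5.61% (3.96 to 7.68), where over the whole pooled list 7.03% of regions were in the set. Among promoter regions 98, 9.94% (8.14 to 11.98), were in it, and among gene body regions 59, 4.75% (3.64 to 6.09). Distal intergenic regions of the X chromosome had the highest share, 27 of 211 or 12.8% (8.60 to 18.1). The autosomal distal share therefore lay under that of promoters with intervals that did not overlap, while its interval overlapped that of gene bodies and included the background. Per megabase of sequence there were 1.86 distal, 5.33 promoter and 1.32 gene body regions of the set. A q-value under 0.05, as the authors' peak caller gave it, was reached by 42 distal regions, 6.54% (4.76 to 8.74), against 7.91% of all pooled regions. The 6 that passed this without being in the IDR set ranked 251 to 279 in the pooled list, just after the 248 of the set.

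The signal of distal regions was mostly close to the floor of the list, as over the whole pooled list. It is the value that the authors' peak caller gave, on a scale the labels and headers leave unnamed, and it is compared within a list only. In the pooled list it ranged from 16.6 to 61.9 with a median of 19.0 (quartiles 17.6 and 22.1). The median was 19.8 in promoters, where the highest value was 111, and 18.9 in gene bodies, where it was 89.2. In distal regions of X the median was 19.4 and the highest value 162. Over all pooled regions the median was 19.3 (quartiles 17.6 and 22.5). None of the 20 highest pooled regions was an autosomal distal one, and 15 of the highest 100 were. The share of autosomal regions that were distal moved little along the ranking, from 18.7% (13.4 to 24.9) at ranks 1 to 248 to 23.8% (21.4 to 26.2) at ranks 2001 to 3527, and those intervals overlap. Promoters made up 50.8% (43.5 to 58.0) of the first and 29.1% (26.6 to 31.7) of the last of these bins. In the replicate lists, the highest 248 regions were 17.7% distal in replicate 1 and 20.1% in replicate 2, as shares of their autosomal regions. Over the whole lists, of 30000 and 29345 regions, the shares were 20.2% in replicate 1 and 22.1% in replicate 2.

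**Figure D1:**
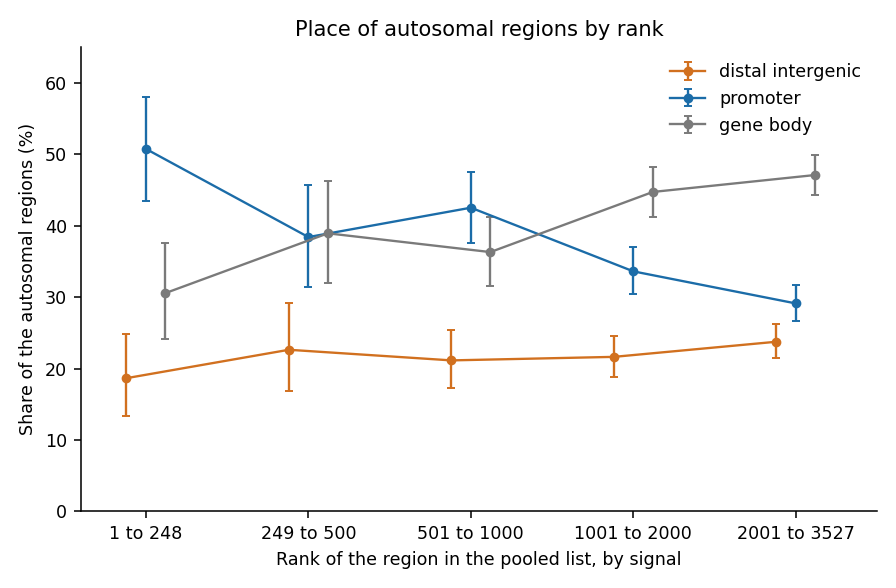
Share of autosomal regions (y axis, %) that were distal intergenic, promoter or gene body, in 5 bins of pooled rank by signal (x axis). Points are shares and bars exact 95% intervals, and the distal share stays between 18.7% and 23.8% while the promoter share is 50.8% in the first bin and 29.1% in the last.

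The strongest distal region lay on chromosome IV at 14594217 to 14594560, in the long interval between irld-18, which encodes a protein with receptor L domains, and dmd-6, which encodes a DM domain transcription factor. Its signal was 61.9 in the pooled list, 16.3 in replicate 1 and 47.9 in replicate 2. The next, on III at 4281959 to 4282302, lay 1907 bp upstream of sup-26, which encodes an RNA-binding protein, and had a signal of 61.2, with 34.6 in replicate 1 and 27.4 in replicate 2. The region near gcy-3, a receptor guanylate cyclase gene, on II at 9500936 to 9501279, had a signal of 55.8, with 39.8 in replicate 1 and 23.9 in replicate 2. The replicates thus placed these 3 regions in different orders. On V, the highest was at 18346155 to 18346498, 3802 bp upstream of C08E8.3, with a signal of 52.4, 24.4 in replicate 1 and 25.1 in replicate 2. On I, the highest was at 8786852 to 8787195, 1609 bp upstream of mfb-1, with a signal of 46.6, 13.5 in replicate 1 and 32.7 in replicate 2.

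The other 10 of the 15 strongest distal regions had pooled signals from 42.7 to 51.9. On V, a region at 9074370 to 9074713 lay 1002 bp upstream of oac-50, an acyltransferase homologue, and 242 bp past the 3′ end of T27E4.7. On II, a region at 5543586 to 5543929 had ins-13, an insulin-like peptide gene, as its nearest 5′ end and overlapped sls-2.2, a gene for the spliced leader RNA that is joined to downstream messages of worm operons. Upstream of nhr-88, which encodes a nuclear hormone receptor, the region at II 2973927 to 2974270 lay 2540 bp away. Upstream of din-1, whose product is a corepressor partner of the DAF-12 receptor, the region at II 11635731 to 11636074 lay 2294 bp away. Upstream of letm-1, a mitochondrial inner membrane protein gene, the region at V 13658568 to 13658911 lay 2517 bp away and overlapped the non-coding RNA H37A05.6. The region at V 1151202 to 1151545 overlapped the long intergenic non-coding RNA linc-128 and lay 4897 bp upstream of cmd-1, the calmodulin gene. Past the 3′ ends of gdh-1 (glutamate dehydrogenase), T28B8.1 and atp-1 (a subunit of ATP synthase) lay the regions at IV 11955595 to 11955938, I 8134924 to 8135267 and I 12654529 to 12654872. The last of the 10 was at V 8654992 to 8655335, 10901 bp upstream of ZC190.4.

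**Figure D2:**
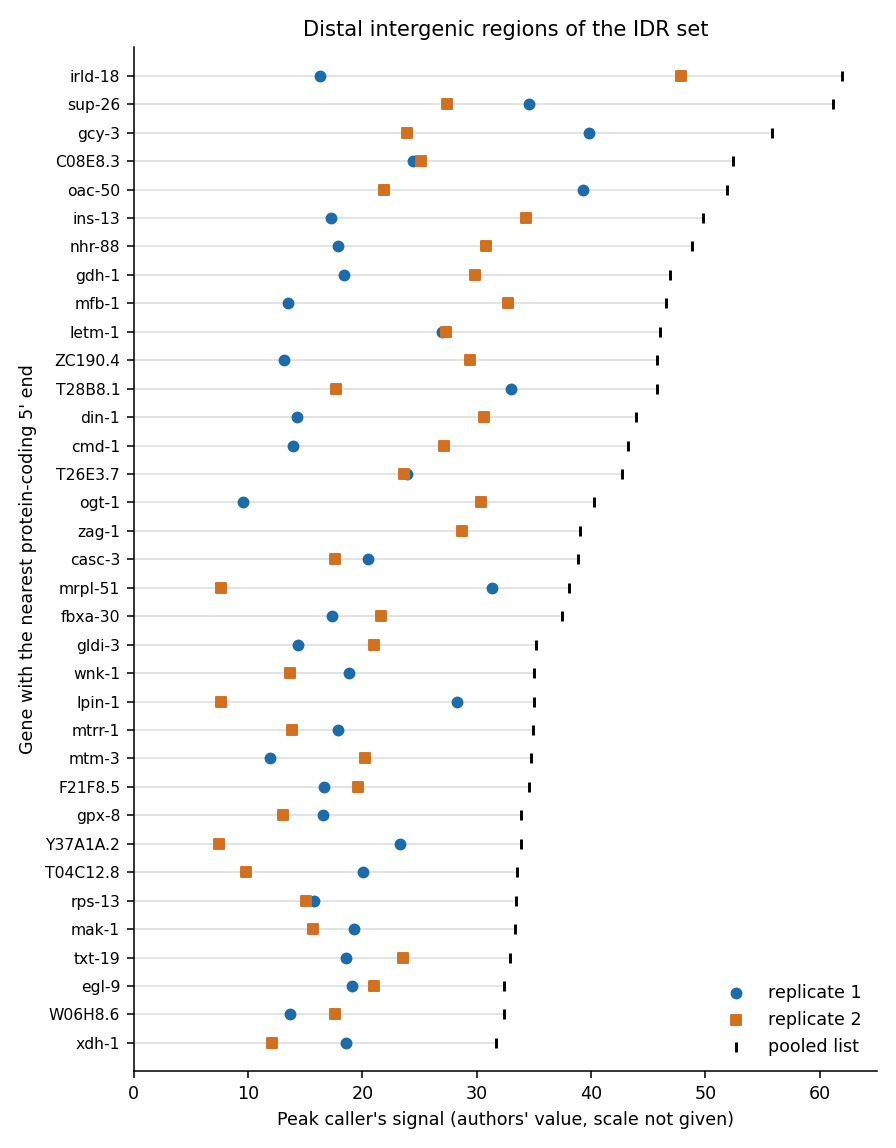
Signal of 35 of the 36 distal intergenic regions of the IDR set (rows, named by the nearest protein-coding 5′ end) in replicate 1, in replicate 2 and in the pooled list (x axis, authors' value on a scale that is not given). The pooled values run from 31.6 to 61.9, replicate values lie below them, and the zag-1 region has no replicate 1 point because no region of that list matched it.

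The replicates shared few of the distal regions among their strongest, as over the whole list. A distal region was held to be among the strongest of a replicate when one of that replicate's highest 3527 regions had its summit within 200 bp. This was so for 277 in replicate 1, 43.1%, and for 292 in replicate 2, 45.5%, but for only 96 in both, 14.95% (12.3 to 18.0), and the interval includes the 16.53% of all pooled regions. Another 181 were among the strongest in replicate 1 alone, 196 in replicate 2 alone and 169 in neither. Of promoter regions 20.4% (17.9 to 23.0) were among the strongest in both, and of gene body regions 13.1%. With any region of the replicate list allowed, 538 distal regions had a match in replicate 1 and 554 in replicate 2. Over the 456 regions with a match in each list, the 2 signals had a Spearman correlation of −0.03, close to the 0.03 across all 2605 such regions of the pooled list. The value was −0.05 across 895 gene body regions, 0.11 across 761 promoter regions and 0.35 across 160 distal regions of X. These describe regions of the same libraries that were chosen on a list made from both replicates together, and both replicate lists used the same control alignment.

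Within the IDR set, which was itself built from the replicate lists, 30 of the 36 distal regions, 83.3% (67.2 to 93.6), were among the strongest in both replicates, against 87.1% over the whole set. The other 6 were among the strongest of a single replicate, 4 of them in replicate 1 and 2 in replicate 2. The region at IV 3852368 to 3852711, 3303 bp upstream of zag-1, a neuronal zinc finger homeodomain factor gene, ranked 74 in replicate 2 and had no match in replicate 1. The region at IV 12032387 to 12032730, 405 bp past the end of mrpl-51, a mitochondrial ribosomal protein gene, ranked 44 in replicate 1 and 11529 in replicate 2. The region at V 13657118 to 13657461, upstream of lpin-1 (lipin), ranked 54 in replicate 1 and 11765 in replicate 2. The region at III 7155686 to 7156029, between ogt-1 (O-GlcNAc transferase) and nuo-4, ranked 4276 in replicate 1 and 63 in replicate 2. The remaining regions of the 6 lay upstream of Y37A1A.2, at ranks 100 and 12304 in replicates 1 and 2, and past act-3, at ranks 156 and 5002. These 6 regions were chosen after their values were seen. The Spearman correlation of replicate signals over 35 distal regions of the set was −0.32, against 0.24 over 241 regions of the whole set, 0.21 over 94 in promoters, 0.01 over 58 in gene bodies and 0.68 over 27 distal ones of X. The 36 distal regions of the set are also all those at ranks 1 to 248 of the pooled list, whose signal comes from both replicates. How far choice on that signal shaped these correlations was not tested.

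**Figure D3:**
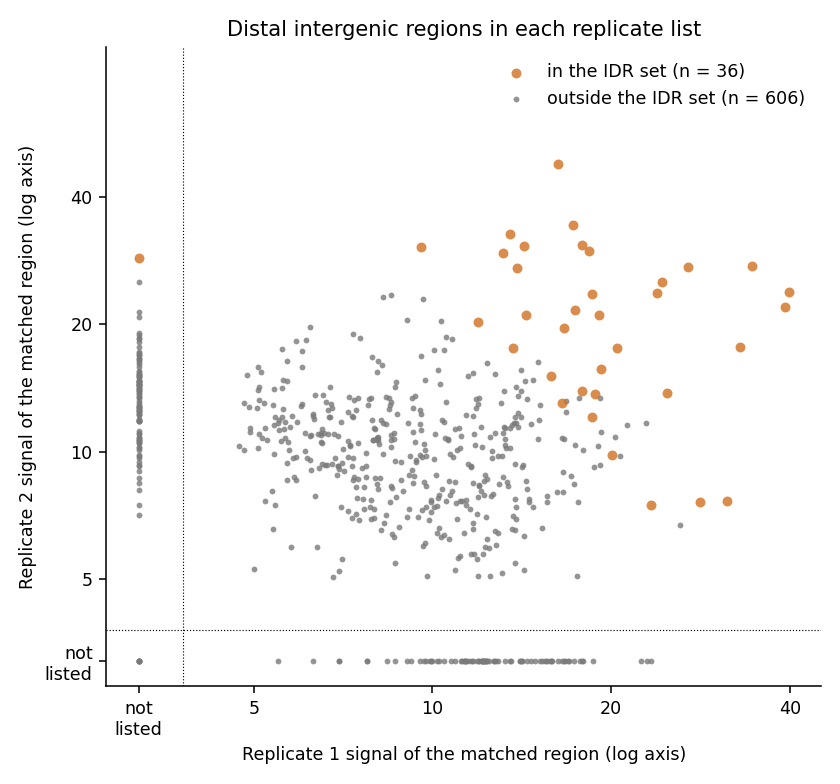
Signal of the matched region in replicate 1 (x axis, log) and replicate 2 (y axis, log) for the 642 distal intergenic regions, with regions that had no match placed on the margins marked not listed. The 456 regions matched in both, with those of the IDR set among them, show no upward slope (Spearman −0.03). The 36 regions of the set lie along the upper and right edges of the cloud.

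The AP-1 site was found at few distal summits. It was searched on both strands in 201-base windows centred on the summit, and in windows of the same length centred 1000 bp to each side. Of the 642 summit windows 16 held a site, 2.49% (1.43 to 4.02), against 1.79% (1.14 to 2.68) of the 1284 flanking windows. Over all 92970 windows of that length that tile the autosomal distal sequence, 1.90% held one, which lies inside the interval for summits. At promoter summits the share was 4.77% (3.52 to 6.29), against 1.06% in their flanks. The share was 1.77% (1.11 to 2.67) at gene body summits, 3.32% (1.34 to 6.72) at distal summits of X and 3.01% over all pooled regions, which the distal interval includes. In the IDR set 1 of 36 distal summit windows held a site, 2.78% (0.07 to 14.5), against 10 of 98 promoter windows, 10.2% (5.003 to 18.0), 5 of 59 in gene bodies, 8.47% (2.81 to 18.7), 1 of 27 distal windows of X, 3.70% (0.0937 to 19.0), and 20 of 248 over the whole set, 8.06%. All these intervals overlap.

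The 16 distal windows held 18 sites at distances from 5 to 95 bp from the summit, with a median of 51.5 bp, and 9 of the 18 lay within 50 bp. The txt-19 region, on IV at 12842187 to 12842530, had a pooled signal of 32.9 at rank 205, 18.5 in replicate 1 and 23.5 in replicate 2. It lay 3540 bp upstream of txt-19, with sites 29 bp to the left and 7 bp to the right of its summit. The other 15 regions had pooled signals from 17.1 to 23.8. Among those shown above, the rga-9 region had its site 5 bp from the summit and a pooled signal of 23.8. The lab-2 region, at rank 3062, had 2 sites and a pooled signal of 17.1. The rga-9, crm-1, Y75B8A.28 and lab-2 regions were chosen after their values were seen, for a site within 11 bp of the summit. None of the 16 lay on chromosome I, where there were 101 distal regions. The exact upper limit for 0 of 101 is 3.59%, above the 2.49% of all distal regions, so this 0 cannot show a lower share there.

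Runs of alternating G and A were more common at distal summits than beside them, as over the whole pooled list. A GAGAGAG or CTCTCTC run lay in 65 of the 642 summit windows, 10.1% (7.90 to 12.7), against 4.13% (3.11 to 5.36) of flanking windows and 3.30% of all distal windows. Over all pooled regions it lay in 7.77% (6.91 to 8.70) of summit windows, just under the distal interval, against 3.42% of flanks. The shares were 8.42% (6.76 to 10.3) against 2.74% for promoters, 6.76% against 4.31% for gene bodies and 5.69% against 1.66% for distal regions of X. In the IDR set the run was in 9 of 36 summit windows, 25% (12.1 to 42.2), against 3 of 72 flanking windows, 4.17% (0.868 to 11.7). Summits of the set in other places held the run too, 15.3% (8.83 to 24.0) of those in promoters and 28.8% (17.8 to 42.1) of those in gene bodies. Among distal summits of X in the set 1 of 27 held it, 3.70% (0.0937 to 19.0), and over the whole set 18.1% did. No distal window held both a GA run and an AP-1 site. The exact upper limit for 0 of 65 is 5.52%, above the 2.49% with an AP-1 site among all distal windows. This 0 therefore cannot show that the motifs avoid each other. Of the 65 regions with a run 21, or 32.3% (21.2 to 45.1), were among the strongest in both replicates, against 75 of the 577 without one, 13.0% (10.4 to 16.0).

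The 9 regions of the IDR set with a GA run, chosen after their values were seen, all lay upstream of the gene with the nearest 5′ end, from 1088 to 2904 bp away. Most of the 36 distal regions of the set lay upstream too, and the rule keeps such summits more than 1000 bp away. The casc-3 region also lay 146 bp past the 3′ end of W08E3.4. The region upstream of din-1 had 9 overlapping matches to the run, with a signal of 43.9 in the pooled list, 14.3 in replicate 1 and 30.6 in replicate 2. The nhr-88 region had 5, with 48.8 in the pooled list, 17.9 in replicate 1 and 30.8 in replicate 2. Its summit window was 60.7% G and C, against 26.6% in its flanks. Upstream of egl-9, the prolyl hydroxylase gene of the hypoxia pathway, the region at V 10466704 to 10467047 had 2, with 32.4 in the pooled list, 19.1 in replicate 1 and 21.0 in replicate 2. Others lay near letm-1, casc-3, gldi-3, mtm-3 (a myotubularin phosphatase) and xdh-1 (xanthine dehydrogenase), with pooled signals from 31.6 to 46.1. By rank, 4 of the 9 stood higher in the list of replicate 1 and 5 in that of replicate 2.

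Of the other motifs, the E-box CACGTG was in 38 summit windows, 5.92% (4.22 to 8.03), against 3.12% (2.23 to 4.22) of flanks and 2.83% of all distal windows. Over all pooled regions the E-box was in 5.19% of summits, which the distal interval includes, and in 3.64% of flanks. The GATA site AGATAA was in 12.8% (10.3 to 15.6) of summits and 13.6% of flanks. The CRE site TGACGTCA, which other bZIP dimers bind, was in 3 summits, 0.467% (0.0965 to 1.36), against 0.701% of flanks and 1.09% of all distal windows. In the IDR set it was in 0 of 36, which allows a share of up to 8.33% as 3 counts of the total, and the exact upper limit is 9.74%. TTTTTTTT was in 23.8% of summits and 25.7% of flanks, but in 3 of 36 distal windows of the set, 8.33% (1.75 to 22.5), against 26.4% (16.7 to 38.1) of their flanks. Base composition moved with membership of the set, in distal regions as over the whole list. Median G and C content at the summit was 40.3% in the 36 regions of the set, against 35.6% in their flanks, and 33.3% in the other 606, against 34.3% in theirs. Over the whole set the median at the summit was 40.8%, against 34.8% over all pooled regions. The same medians were 40.8% and 35.8% in promoters, 41.8% and 34.8% in gene bodies, and 37.8% and 32.8% in distal regions of X. The part of base composition in the GA run and T run shares was not tested.

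**Figure D4:**
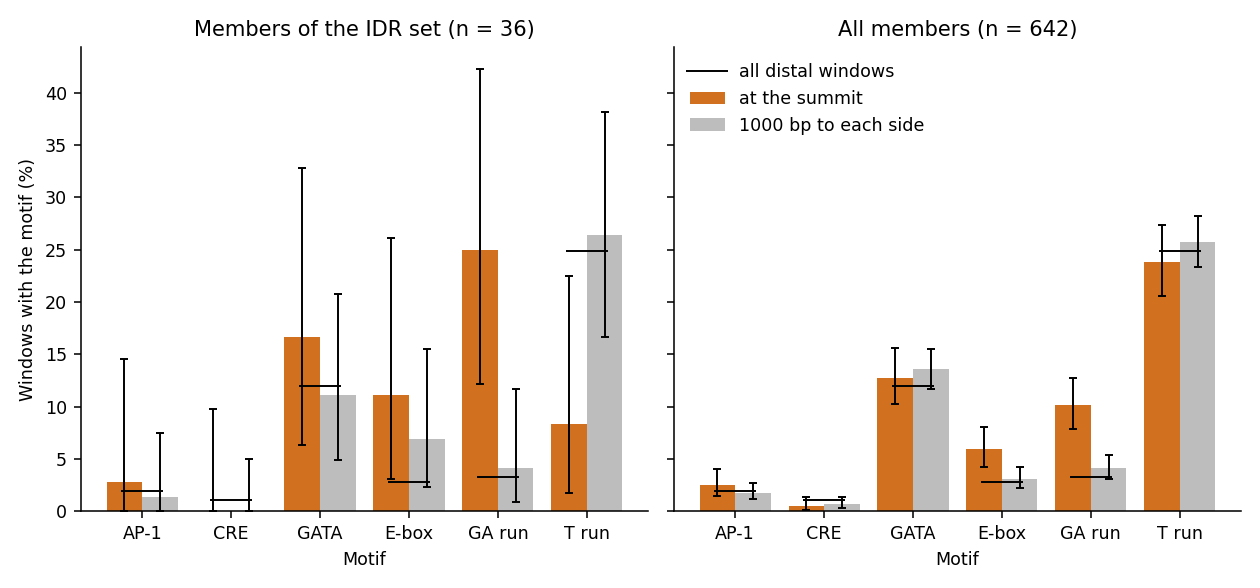
Share of 201-base windows (y axis, %) that held each motif at the summit and 1000 bp to each side, for the 36 distal regions of the IDR set (left) and all 642 (right). Bars are shares with exact 95% intervals and short lines mark the share of all distal windows, and the GA run stands at 25% of summits in the set against 4.17% of flanks.

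Distal summits lay beyond gene 3′ ends more often than the length of such sequence. Within 250 bp past the 3′ end of the adjoining protein-coding gene were 118 of the 642 summits, 18.4% (15.5 to 21.6), where 8.50% of distal bases lie. Within 100 bp were 8.72% (6.66 to 11.2) of summits, against 3.76% of bases, and within 1000 bp 34.0% (30.3 to 37.8), against 24.2%. From 251 to 500 bp past the end the share of summits, 7.63% (5.70 to 9.97), was close to the 6.25% of bases. In the next bin, up to 1000 bp, the share was 7.94% (5.97 to 10.3), with 9.44% of bases inside its interval. From there to 2000 bp it was 9.19% (7.07 to 11.7), with 13.0% of bases above its interval. In the IDR set 10 of 36 lay within 250 bp, 27.8% (14.2 to 45.2). Its interval includes the share of all distal regions. Of the 118 regions 25, or 21.2% (14.2 to 29.7), were among the strongest in both replicates, against 71 of the other 524, 13.5% (10.7 to 16.8). Only 4 of the 118 held a GA run, 3.39% (0.931 to 8.45), against 61 of the other 524, 11.6% (9.02 to 14.7).

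The 10 regions of the set beyond a 3′ end, chosen after their values were seen, followed 10 different genes. The region 226 bp past gdh-1 had a signal of 46.9 in the pooled list, 18.4 in replicate 1 and 29.8 in replicate 2. The region 46 bp past atp-1 had 42.7 in the pooled list, 23.9 in replicate 1 and 23.6 in replicate 2. The region 168 bp past nuo-4, a subunit gene of respiratory complex I, had 40.2 in the pooled list, 9.58 in replicate 1 and 30.4 in replicate 2. Past act-3, an actin gene, by 84 bp, the region at V 11071434 to 11071777 had 33.5 in the pooled list, 20.1 in replicate 1 and 9.82 in replicate 2. Past rps-13, a ribosomal protein gene, by 64 bp, the region at III 6373861 to 6374204 had 33.5 in the pooled list, 15.8 in replicate 1 and 15.1 in replicate 2. The other 5 followed T27E4.7, T28B8.1, W08E3.4, asp-6 (an aspartyl protease) and mak-1 (a MAPK-activated protein kinase). The mak-1 region, on II at 8747160 to 8747503, lay 82 bp past that gene in the interval it shares with atf-2, which encodes a bZIP factor. Transcript levels were not measured in the lists used here, so how strongly these genes are expressed was not tested.

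**Figure D5:**
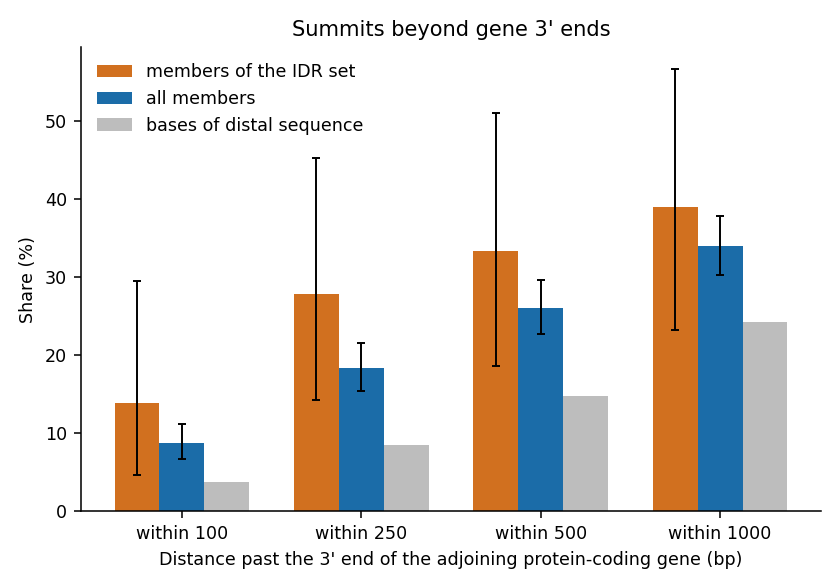
Share of summits (y axis, %) within 100, 250, 500 and 1000 bp past the 3′ end of the adjoining protein-coding gene (x axis), for the 36 distal regions of the IDR set, all 642 distal regions and the bases of autosomal distal sequence. Bars on the first groups are exact 95% intervals, and within 250 bp the shares are 27.8%, 18.4% and 8.50%.

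Other features of the neighbourhood were set against the bases of distal sequence in the same way. The nearest protein-coding 5′ end lay a median of 2308 bp away, from 514 to 29761 bp, with the lower end set by the rule. Of the 642 summits 41.3% (37.4 to 45.2) lay in the arms, taken as the outer 25% of the chromosome at each end, which hold 53.6% of distal bases. Worm chromosome arms are richer in repeats and fast-evolving gene families than the centres. Pseudogenes held 25 summits, 3.89% (2.54 to 5.69), on 12.2% of distal bases. In the IDR set they held 0 of 36, with an exact upper limit of 9.74%. That limit lies above the 3.89% of all distal summits, so this 0 cannot show a lower share in the set. Genes annotated as non-coding RNA held 27 summits, 4.21% (2.79 to 6.06), on 1.39% of bases, with a median signal of 21.6. Long intergenic non-coding RNA genes held 11, 1.71% (0.858 to 3.05), on 0.788% of bases, and piRNA genes 4, 0.623% (0.170 to 1.59), on 0.663% of bases. No summit lay in a gene for tRNA, snoRNA, snRNA, microRNA or rRNA, and 0 of 642 allows a share of up to 0.467% as 3 counts of the total, with an exact upper limit of 0.573%. These kinds each hold only 0.0246% (snRNA) to 0.0466% (rRNA) of distal bases, far under that limit, so the absence cannot show a depletion. Gaps between divergent genes held 27.4% of summits on 28.8% of bases, tandem gaps 57.2% on 53.5% and convergent gaps 15.4% (12.7 to 18.5) on 17.6%.

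Bases in lower case in the assembly, its mark for repeats and simple sequence, were a median of 34.2% of a distal region. Over all pooled regions the median was 31.1%. Long words with exact copies elsewhere in the genome were rarer. Of the 642 regions 15, or 2.34% (1.31 to 3.82), had fewer than 90% of their 31-base words unique, against 3.06% of all pooled regions. The ins-13 region was the only one of these 15 in the IDR set, with 83.4% unique words and at most 4 copies of any word. A neighbouring region at II 5544178 to 5544521 had 78.7% unique words, overlapped the spliced leader gene sls-2.3, and had a pooled signal of 27.8.

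By the gene with the nearest 5′ end, distal regions were spread over 559 genes, and no list of genes held many. None of 27 bZIP factor genes, 17 anchor cell invasion genes or 15 vulva and uterus genes was nearest to a distal region, and an exact upper limit of 0.573% goes with 0 of 642. Of the other 2885 pooled regions 0.659% were nearest to a bZIP factor gene, 0.104% to an anchor cell invasion gene and 0.0693% to a vulva and uterus gene, so the last pair of shares lies under that limit. These other regions include those on X, and the gene lists cover every chromosome. An autosomal distal region can be nearest only to an autosomal gene, so the shares rest on unlike sets of genes. Spermatheca genes had 3 distal regions, 0.467% (0.0965 to 1.36), against 0.243% of other pooled regions. One of them lay upstream of lfe-2, an inositol phosphate kinase gene, with a pooled signal of 17.3. Stress and chaperone genes had 2, near mlk-1 (a MAPK kinase kinase, 20.05) and hsp-1 (an Hsp70 chaperone, 18.8). Nuclear hormone receptor genes had the most, 17 regions near 15 genes, 2.65% (1.55 to 4.21), against 1.84% of other pooled regions. After nhr-88, the strongest of these were near nhr-20 with a pooled signal of 25.1, nhr-274 with 23.4 and nhr-105 with 21.98. Each of these 3 ranked higher in replicate 2 than in replicate 1, and the nhr-105 region had no match in replicate 1.

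Chemoreceptor genes, which cluster on the arms, are 6.42% of protein-coding genes, those on X included. They were nearest to 11 distal regions, 1.71% (0.858 to 3.05), against 1.84% of other pooled regions. The strongest lay near str-56, str-175, srab-9 and srb-5, with pooled signals from 19.5 to 27.5. F-box genes had 7, led by the region at III 1279228 to 1279571, 3787 bp upstream of fbxa-30, with 37.4 in the pooled list, 17.4 in replicate 1 and 21.6 in replicate 2. The next F-box genes were fbxa-65, fbxc-48 and fbxb-78, with pooled signals from 17.6 to 20.8. Neuropeptide genes had 5 regions, and after the ins-13 regions came nlp-40 with 20.2 and flp-6 with 20.1. Collagen genes had 4, near col-54, col-62, col-137 and col-156, all with pooled signals from 16.6 to 16.9. Homeobox genes had 3, a pair near ceh-43, the weaker with 17.05, and one near ceh-9 with 16.95. Genes for bHLH factors had 2, near hlh-32 with 18.7 and hlh-31 with 17.3. C-type lectin genes had 3, near clec-183 with 25.2 and 17.5 and near clec-181 with 17.7. Ribosomal protein genes had 3, near rps-13, rps-6 with 21.2 and rpl-31 with 16.6, and histone genes 1, near his-59 with 17.6.

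Some distal regions lay close together. There were 69 neighbouring pairs with summits within 2000 bp of each other, made up of 126 regions, and in 56 pairs both had the same nearest gene. A pooled region of any place lay within 2000 bp of 27.4% (24.0 to 31.0) of distal summits, against 22.9% (20.3 to 25.7) of promoter summits and 28.6% (26.1 to 31.2) of gene body summits. In 2 pairs both regions were in the IDR set. One pair lay between gldi-3 and mtrr-1, which encodes methionine synthase reductase, with summits 1238 bp apart and signals of 35.2 and 34.9. The other lay between lpin-1 and letm-1, with summits 1450 bp apart and signals of 35.0 and 46.1. The genes din-1 and rga-9 each had 4 distal regions, the most of any gene. Those upstream of din-1 lay between 1550 and 3834 bp away, with signals of 43.9, 22.8, 21.6 and 17.05, and the weaker 2 of these overlap each other and matched the same replicate 1 region.

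At the edge of the rule, the summits just inside the upstream limit lay 1002, 1003 and 1008 bp from oac-50, lgc-30 and sqv-8, with pooled signals of 51.9, 17.6 and 17.1. Those just outside lay 999, 997 and 996 bp from mksr-2, Y59E9AL.4 and nas-8, with 25.1, 19.4 and 18.0.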

How the data were processed

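ChIP-seq of eGFP-tagged FOS-1 was measured in 2 biological replicates. Per the deposited file lists, the authors called peaks and background on each replicate and on both together, each with the same control alignment, and derived the IDR set from these 3 lists. The signal and the −log10 q-value per region are the authors' deposited values, in narrowPeak column order. The aligner, peak caller and IDR threshold are named in none of the labels or headers (not given in the sources used here), and the ce10 lists were left out because the annotation is on ce11. Summits were placed on ce11 with Ensembl annotation release 115 and sequence from RefSeq WBcel235. Motif windows, flanks, matching distance and intervals are as stated in the report. As the design has 1 group, no test was run, and shares carry exact 95% intervals for counting error. There were 0 columns without a sample or list. Python 3.11.15, numpy 2.4.6, pandas 2.3.3, scipy 1.17.1 and matplotlib 3.10.9 were used, and motif search, placement and matching were tested on simulated data. Alternatives were upstream limits of 500 and 2000 bp, gene bodies of every annotated kind but piRNA, the regions ranked 1 to 1763, regions of mostly unique sequence, each replicate list alone, and other motif windows and matching distances. Members, gene lists and motifs were chosen with earlier results of these data known. Named regions are the 15 of highest signal, the highest of each autosome, those of the IDR set with an AP-1 site, and up to 4 per gene list by signal. Others are said to be chosen after their values were seen. The values of 1 gene are not reported here.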

Additional observations from a re-analysis of the deposited data

How the results depend on the processing

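Of 55 recomputed values, 40 stayed close to the reported result and 15 did not. Close meant within the interval of the reported share or median, or within 1.5 times the reported count. Each value was a share, median or count without a direction, so reversal could not be tested. Among the regions ranked 1 to 1763 there were 301 distal ones, with a median signal of 22.3, an IDR share of 11.96%, a match in both replicates for 30.6% and a GA run in 14.95%. With motif windows of 50 bp to each side of the summit, AP-1 was in 1.09% of summits and 1.01% of flanks and the GA run in 5.92% and 1.95%. With 200 bp to each side AP-1 was in 4.05% of summits and 3.97% of flanks and the GA run in 15.9% and 9.19%. Matching within 100 bp gave 11.99% matched in both replicates. The share past a 3′ end was 8.72% within 100 bp and 26.01% within 500 bp.

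Leaving out one replicate gave 574 to 628 distal regions, an IDR share of 5.41% to 5.92%, an AP-1 share of 2.55% to 3.66%, a GA run in 8.28% to 10.6%, and 15.45% to 19.3% within 250 bp past a 3′ end. The match to the strongest regions of the remaining replicate was then 43.1% to 45.5%, since only that list had to hold the region. The IDR share of a single replicate list counted regions with a summit of the set within 200 bp, while the main share required an identical summit. No median signal was taken from a single replicate list, whose signal has its own scale. The settings for the median signal, the GA run and 3′ ends were added after seeing the data. No paired analysis was possible because there was 1 group. Depth is unknown, so how it limits the replicate match was not tested.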
